A study of Mus musculus with 3 samples.

Results

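The 10 genes described here encode the proteins of elastic fibres and of the microfibrils on which these fibres form. They were taken by name from a deposited table of 43346 genes, 22032 of them protein-coding, and all 10 were found. The table holds RNA sequencing values of 3 libraries of mesenchymal stem cells (MSCs), stromal cells that attach to plastic and grow out of many tissues. The cells came from fat pads of adult C57BL/6 mice and were cultured in advanced MEM with fetal bovine serum. Total RNA was the starting material of the libraries. The labels name no genotype, treatment, sex, passage or exact age, and do not say whether mice were pooled. All 3 libraries form a single group, so no contrast between conditions was possible, and the genes were compared with one another within the libraries. Whether each library stands for its own mouse or culture is not stated, so an SD here may measure technical spread only. Values are RPKM (reads scaled to gene length in kilobases and to library size) as deposited, given per library or as mean ± SD (n = 3).

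Elastic fibres give skin, lung and the walls of large vessels their recoil. Fibrillins are secreted and join into microfibrils, to which microfibril-associated glycoproteins (MAGPs) bind. Tropoelastin, the product of Eln, is brought onto this scaffold with the help of fibulins and is then crosslinked by lysyl oxidases. Microfibrils also occur without elastin, and they hold latent TGF-beta through its binding proteins. Stromal cells such as fibroblasts and vascular smooth muscle cells are the usual makers of these proteins.

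Start-site windows of 250 bases before the transcription start were used for 7 of the 10 genes, from RefSeq on the GRCm38.p6 build, as 12 windows. Any window of Fbn2 was left out by a rule on its chromosome. In 3 of the 12 windows no base was annotated as an exon. They are those of 3 fibulin genes with a high, a middle and a low level in these cells, and they are shown to let the upstream sequence of the family be compared. Each is written 5′ to 3′ on the strand of its gene, with capitals where a searched motif matched.

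Efemp2 (chr19:5473696-5473945, plus strand): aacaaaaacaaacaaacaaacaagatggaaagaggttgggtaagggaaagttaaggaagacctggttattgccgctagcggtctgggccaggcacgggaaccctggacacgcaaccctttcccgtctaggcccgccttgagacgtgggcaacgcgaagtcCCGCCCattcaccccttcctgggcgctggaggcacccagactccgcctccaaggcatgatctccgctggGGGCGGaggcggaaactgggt
Fbln5 (chr12:101819120-101819369, minus strand): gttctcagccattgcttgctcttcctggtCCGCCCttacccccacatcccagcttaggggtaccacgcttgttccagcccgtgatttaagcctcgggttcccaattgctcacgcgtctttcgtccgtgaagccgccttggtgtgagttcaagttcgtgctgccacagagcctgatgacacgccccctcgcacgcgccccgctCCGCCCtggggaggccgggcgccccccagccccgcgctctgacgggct
Fbln1 (chr15:85205699-85205948, plus strand): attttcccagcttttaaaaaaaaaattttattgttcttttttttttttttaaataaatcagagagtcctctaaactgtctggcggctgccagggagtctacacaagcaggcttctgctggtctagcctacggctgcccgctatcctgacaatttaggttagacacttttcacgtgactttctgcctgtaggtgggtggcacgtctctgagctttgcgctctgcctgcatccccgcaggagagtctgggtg

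Both strands were searched for the TATA box TATAAA, the GC box GGGCGG, the AP-1 site TGANTCA, the TEAD site GGAATG and the CArG box, and each of several overlapping matches was counted. The windows shown for Efemp2 and Fbln5 each held 2 GC boxes, and that shown for Fbln1 held none of the 5 motifs. Other windows of these genes differed: Fbln1 had 1 GC box in its other window, Fbln5 had 0, and those of Efemp2 had 5 each. A GC box was found in 9 of the 12 windows, some of which overlap, and is present in 32.7% of the 32851 windows of the same length in the table. No TATA box was found in any of the 12 windows, and 12.4% of all windows hold one. The AP-1 site was matched in the window of Efemp1 and the TEAD site in 1 window of Mfap2, against 6.75% and 12.6% of all windows. The CArG box, present in 1.47% of all windows, was matched in none of the 12. CpG dinucleotides numbered 15 in the window shown for Efemp2, 21 in that for Fbln5 and 7 in that for Fbln1, and the median of all windows was 6. The other windows of these genes held 27 and 33 for Efemp2, 6 for Fbln5 and 14 for Fbln1. These matches describe the letters of the windows and say nothing of binding.

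All 10 genes were detected, that is, at an RPKM of 1 or more in all 3 libraries, a level that 47.4% of protein-coding genes and 28.3% of all genes in the table reached. The levels spanned a 365-fold range, from Fbln2 at 597 ± 14.5 to Fbn2 at 1.64 ± 0.0517. 6 genes lay above an RPKM of 10, namely Fbln2, Fbn1, Efemp2, Efemp1, Mfap5 and Fbln5, and the other 4, Fbln1, Eln, Mfap2 and Fbn2, lay below it. At a threshold of 5 the 6 higher genes passed, against 27.1% of protein-coding genes, and at 0.5 all 10 passed, against 51.9%. With each library rescaled to the same sum (TPM) 8 of the 10 reached 1, against 35.4% of protein-coding genes. As log2(RPKM + 1), the median level was 4.74 over the 10 genes and 0.85 over protein-coding genes. The genes were listed for their role in the matrix with earlier results of these libraries known, so these shares describe the list and were not tested.

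**Figure D1:**
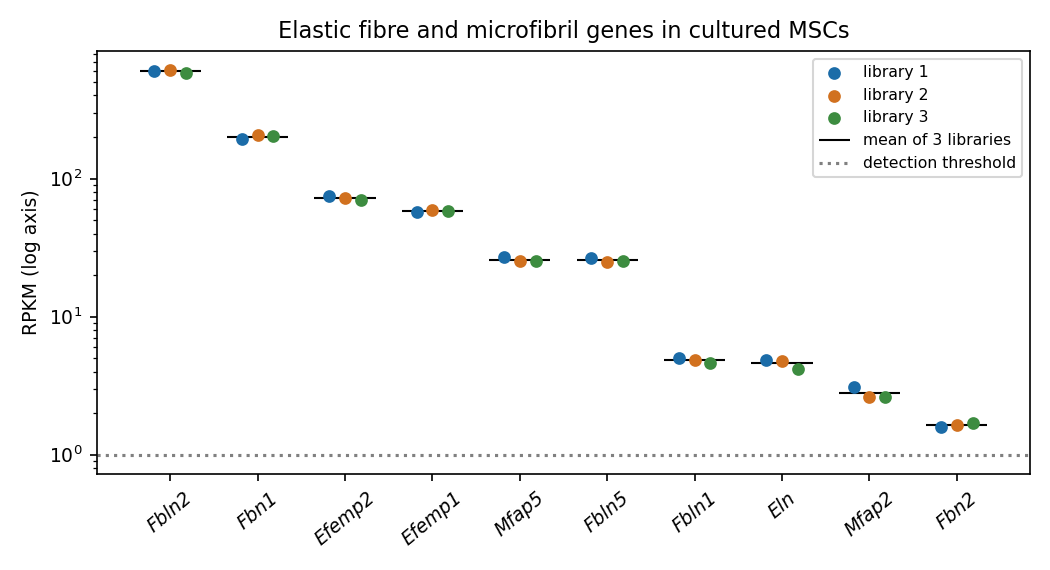
RPKM (log axis) of each of the 10 genes in libraries 1, 2 and 3 (points), with the mean of the 3 libraries (bars) and the detection threshold of 1 (dotted line). The 3 points of each gene lie close together beside the distances between most genes, with Fbln2 at 597 at the top and Fbn2 at 1.64 at the bottom.

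The summed RPKM of the 10 genes was 991, 1012 and 977 in libraries 1, 2 and 3. The 5 fibulin genes made up 76.3% ± 0.427 of that sum and the 2 fibrillin genes 20.4% ± 0.56. The 2 MAGP genes made up 2.89% ± 0.144, and Eln 0.465% ± 0.0324. Fbln2 alone held 60.1% ± 0.398 of the sum, so the total is largely a measure of that gene. These are shares of RNA per length, not of protein.

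The fibrillin genes were far apart. Fbn1, which encodes fibrillin-1, the main microfibril protein of adult tissue and the gene mutated in human Marfan syndrome, lies on chromosome 2 (125300594 to 125507993, GRCm38, minus strand). Its RPKM was 194, 206 and 202 in libraries 1, 2 and 3 (201 ± 5.74), resting on 67912, 82228 and 78506 reads. It ranked 113 among the 22032 protein-coding genes, with 99.5% of them below it. Fbn2 encodes fibrillin-2, known mainly from embryonic microfibrils. Its RPKM was 1.59, 1.63 and 1.69, resting on 479, 564 and 567 reads, and 56.2% of protein-coding genes lay below it. The ratio of Fbn1 to Fbn2 was 123, 126 and 120 in the 3 libraries (123 ± 3.17), so the distance was much larger than the spread between libraries.

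Eln, which encodes tropoelastin (chromosome 5, 134702593 to 134747323, minus strand), was among the lower genes of the list. Its RPKM was 4.89, 4.77 and 4.20 (4.62 ± 0.371), with library 3 the lowest. The 95% counting intervals (exact Poisson) were 4.40 to 5.42, 4.31 to 5.25 and 3.77 to 4.66 in libraries 1, 2 and 3 and overlapped when based on 364, 406 and 347 reads, the smallest numbers that the Eln values allow. The same values also fit 2 or 3 times as many reads, and then libraries 1 and 3 no longer overlapped: at 3 times, the interval was 4.61 to 5.19 in library 1 and 3.95 to 4.46 in library 3. Whether these intervals overlapped thus depends on a length that the values do not settle. Overlap of separate intervals does not decide whether counts differ, and a difference between libraries was not tested. Eln lay above 70.5% of protein-coding genes. Fbn1 exceeded Eln 39.7-fold, 43.1-fold and 48.2-fold in libraries 1, 2 and 3 (43.7 ± 4.25), or by 5.44 ± 0.14 on the log2 scale. On another choice of gene length the mean log2 difference lay between 4.46 and 6.04, with Fbn1 higher under each.

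Among the fibulin genes Fbln2 stood apart. It encodes fibulin-2, a secreted protein known to bind fibrillin-1 and fibronectin (chromosome 6, 91212455 to 91272540, plus strand). Its RPKM was 597, 612 and 583, resting on 100947, 118461 and 109559 reads, and it ranked 24 among the protein-coding genes. The level of Fbln2 exceeded that of Fbn1 by a factor of 3.07, 2.97 and 2.88 in libraries 1, 2 and 3. Efemp2, which encodes fibulin-4, a protein that mice need to form elastic fibres (chromosome 19, 5473954 to 5482517, plus strand), came next at 74.7, 71.9 and 70.0. Efemp1, which encodes fibulin-3 (chromosome 11, 28853204 to 28926743, plus strand), had 57.6, 58.9 and 58.0. The values of Efemp2 lay above those of Efemp1 in all 3 libraries without overlap, by a factor of 1.24 ± 0.0491.

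Fbln5 encodes fibulin-5, which binds tropoelastin and cell integrins and is likewise needed for elastic fibres in mice (chromosome 12, 101746565 to 101819055, minus strand). Its RPKM was 26.4, 24.9 and 25.5 (25.6 ± 0.762). Efemp2 exceeded Fbln5 by a factor of 2.83, 2.89 and 2.75, and Fbln5 in turn exceeded Eln by 5.40, 5.22 and 6.08. With the longest protein-coding transcript as the length, Fbln5 exceeded Eln by a mean factor of 2.77 or 8.30, for the largest and the smallest length of Eln. Fbln1, which encodes fibulin-1 of basement membranes and elastic fibres (chromosome 15, 85205949 to 85286535, plus strand), was the lowest of the 5 fibulin genes described here at 5.05, 4.81 and 4.63. Fbln2 exceeded Fbln1 by a factor of 118, 127 and 126 in the 3 libraries.

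The MAGP genes also differed. Mfap5, which encodes MAGP-2 (chromosome 6, 122505845 to 122529290, plus strand), had an RPKM of 27.1, 25.4 and 25.3, resting on 2802, 3003 and 2905 reads. Mfap2, which encodes MAGP-1 (chromosome 4, 141010418 to 141015984, plus strand), had 3.09, 2.60 and 2.63, resting on 108, 104 and 102 reads. The 95% counting intervals of Mfap2 were 2.54 to 3.74, 2.13 to 3.15 and 2.14 to 3.19 and overlapped. A difference between its libraries was not tested. Mfap5 exceeded Mfap2 by a factor of 8.76, 9.75 and 9.62 (9.37 ± 0.537). Fbn1 exceeded the sum of both MAGP genes by a factor of 6.44, 7.35 and 7.25 (7.01 ± 0.499). Both factors depend on the length behind the RPKM: with the longest protein-coding transcript of each gene, the mean factor was 19.8 for Mfap5 to Mfap2 and 3.14 for Fbn1 to both MAGP genes.

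In the order of mean RPKM, 7 of the 9 neighbouring pairs had ranges that did not overlap between the 3 libraries. Mfap5 (25.3 to 27.1) and Fbln5 (24.9 to 26.4) overlapped, as did Fbln1 (4.63 to 5.05) and Eln (4.20 to 4.89). Within libraries, Fbln1 was above Eln in 3 of 3 and Mfap5 above Fbln5 in 2 of 3. An exact sign-flip permutation test over 3 libraries, in which the 2 genes are paired, cannot go below p = 0.25 (two-sided), so no p is given. The order also depends on the gene length behind the RPKM, and for 5 of the 10 genes, Fbn1, Fbln1, Efemp1, Mfap2 and Mfap5, that length fits the sum of all annotated exons plus 1 base. The length behind Mfap5 was 3590 bases, whereas its longest annotated transcript has 2491 bases and its longest protein-coding transcript 1506. If all Mfap5 reads belonged to that coding transcript, its level would be 61.8, above the 58.2 of Efemp1 computed in the same way. Eln would stand at 9.29, above the 5.77 of Fbln1, if the largest length that fits its values and its current gene model, 7752, had been used, and at 3.10 if the smallest, 2584, had been. Fbln2, Fbn1 and Efemp2 kept the first 3 places under each of these lengths. Mfap2 and Fbn2 held the last 2 places with Eln on its largest length, whereas Eln on its smallest, at 3.10, stood just below Mfap2 at 3.14.

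**Figure D2:**
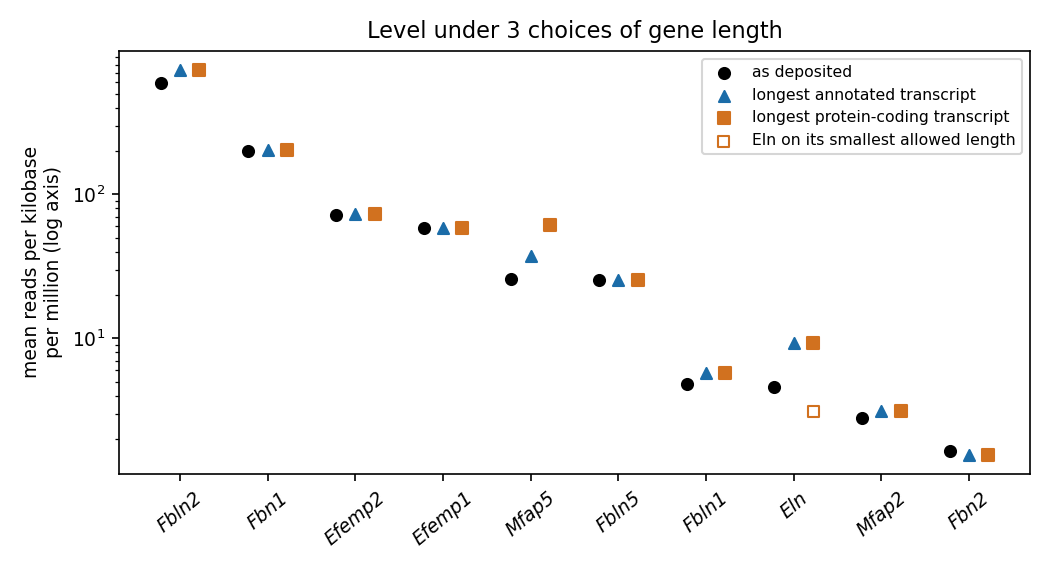
Mean level over 3 libraries (RPKM or its rescaled value, log axis) of the 10 genes as deposited (circles), with the longest annotated transcript as the length (triangles) and with the longest protein-coding transcript (squares, open for Eln on its smallest allowed length). Mfap5 moves from 25.9 to 61.8 and Eln from 4.62 to 9.29 or 3.10, while Fbn1 at 203, Fbln5 at 25.6, Efemp1 at 58.2 and Efemp2 at 72.6 stay within 1 SD.

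The spread between libraries was small. The coefficient of variation (CV, the SD as a percentage of the mean) ranged from 1.19% for Efemp1 to 9.96% for Mfap2, with a median of 3.22%, and the median over the 10447 detected protein-coding genes was 4.95%. These medians were not matched for level, and counting error is smaller in genes with more reads. Counting error alone gives a CV of 0.303% for Fbln2 and 0.363% for Fbn1, below the 2.43% and 2.86% observed. For Mfap2 it gives 9.78%, close to the observed 9.96%, and for Fbn2 4.33%, above the observed 3.16%. Eln had a CV of 8.03%, and counting error gives 5.19% for it at the smallest number of reads and 3.67% or less at 2 or 3 times that number. In 5 of the 10 genes, Fbln2, Fbn1, Efemp2, Mfap5 and Fbln5, the observed CV was more than 2 times that of counting error, and with 2 or 3 times the reads Eln made 6. No library was high or low throughout. Library 1 held the highest value of 6 genes, library 2 of 3 and library 3 of 1.

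**Figure D3:**
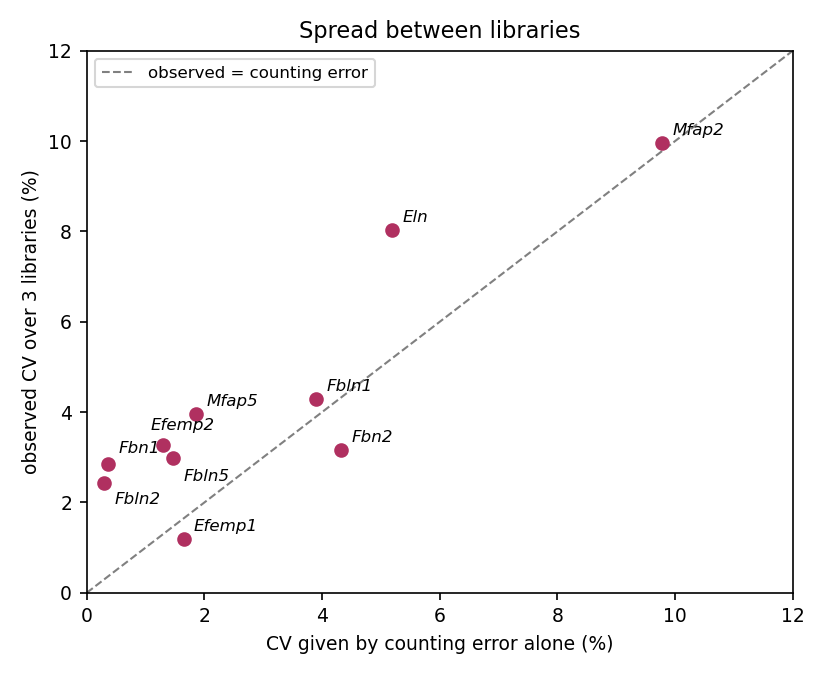
Observed CV over 3 libraries (percent) against the CV that counting error alone gives (percent) for each of the 10 genes, with the line of equality (dashed) and Eln at its smallest number of reads. Fbln2 and Fbn1 lie above the line at 2.43% and 2.86% observed, whereas Mfap2 lies near it at 9.96%.

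Genes around the elastic fibre were examined in 9 further lists with 54 genes, of which 39 were detected. The lysyl oxidases, which crosslink elastin and collagen, were detected in 5 of 5 cases. Lox led at 441 ± 11.3, followed by Loxl2 at 141 ± 2.86 and Loxl1 at 84.0 ± 2.34, whose product is known for its part in elastin crosslinking in mice, and Loxl4 was the lowest at 6.10 ± 0.166. Lox exceeded Eln by a factor of 87.4, 93.4 and 107 in libraries 1, 2 and 3. With the longest protein-coding transcript for Eln alone, the mean factor was 47.7 on its largest and 143 on its smallest length. All 4 latent TGF-beta binding protein genes were detected. Ltbp2 had 167 ± 3.68, which was 0.830 ± 0.00786 of the level of Fbn1. Ltbp3 had 32.7 ± 0.946, Ltbp1 10.4 ± 0.493 and Ltbp4, whose product takes part in elastic fibre assembly, 4.63 ± 0.259. Ltbp2 exceeded Ltbp4 by a factor of 36.1 ± 2.44.

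Of the EMILIN and multimerin genes 2 of 5 were detected, Emilin1 at 19.0 ± 1.07, which encodes a glycoprotein at the face between elastin and microfibrils, and Emilin2 at 16.9 ± 0.97. Emilin3 was listed at 0 in library 1 and stood at or below 0.00880 in the others. Of 7 other fibulin and MFAP genes 3 were detected, Mfap3 at 4.41 ± 0.148, Mfap1a at 2.93 ± 0.27 and Mfap4 at 2.01 ± 0.402. Mfap1a shares the name, but its product is known as a splicing factor. Mfap4 binds elastin and fibrillin-1, and its RPKM was 2.20, 2.27 and 1.54 in libraries 1, 2 and 3. Hmcn2, a hemicentin gene of the wider fibulin family, was the lowest at 0.129 ± 0.0345. Of 8 genes of the ADAMTS and ADAMTSL families tied to fibrillin, 5 were detected, led by Adamts10 at 10.7 ± 1.04, Adamts6 at 6.26 ± 0.499 and Thsd4 at 2.93 ± 0.211, with Adamts17 the lowest at 0.0226 ± 0.0162.

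Proteoglycans and partners that bind fibrillin were detected in 5 of 5 cases, with the fibronectin gene Fn1 at 1162 ± 21.2, Bgn at 278 ± 7.36 and the perlecan gene Hspg2 at 134 ± 5.04, and the versican gene Vcan the lowest at 16.2 ± 0.691. Among integrin genes whose products bind fibrillin or fibulin-5, 6 of 7 were detected. Itgb1 had 329 ± 13, Itga5 145 ± 2.77 and Itgb5 70.7 ± 1.65, and the epithelial chain gene Itgb6 was the lowest at 0.0278 ± 0.0240. All 3 genes of the elastin receptor complex were detected, Ctsa at 18.8 ± 0.165, Glb1 at 10.8 ± 0.422 and Neu1 at 2.94 ± 0.107. Of 10 genes for proteases linked to elastin breakdown 6 were detected. The membrane protease gene Mmp14 had 250.2 ± 7.62, Ctsl 142 ± 0.867 and Ctsb 60.9 ± 1.25. Also detected were Mmp2 at 56.2 ± 0.521, Ctsk at 22.9 ± 1.32 and Ctss at 5.18 ± 0.463. Below the threshold, the macrophage elastase gene Mmp12 had 0.483 ± 0.161 and Mmp9 0.104 ± 0.0343. The neutrophil elastase gene Elane was listed at 0 in libraries 1 and 2 and at 0.0679 in library 3, and Mmp7 was listed at 0 in libraries 1 and 3.

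**Figure D4:**
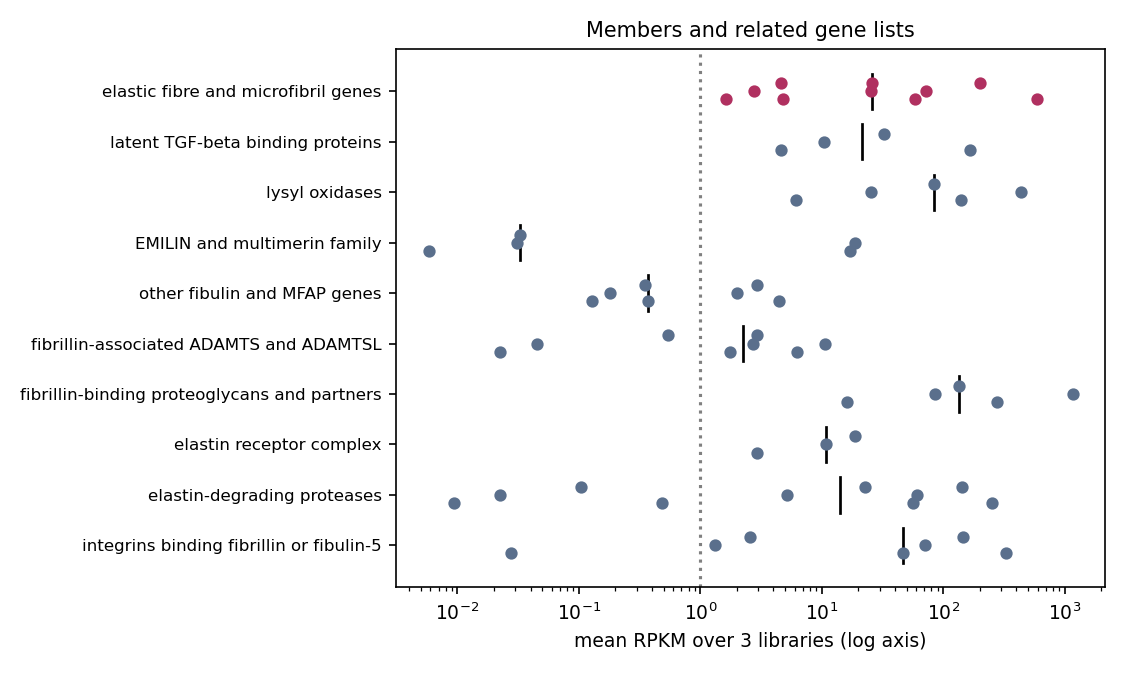
Mean RPKM over 3 libraries (log axis) of the 10 elastic fibre and microfibril genes (red) and of the genes of 9 related lists (blue), 1 point per gene, with the median of each list (bar) and the detection threshold of 1 (dotted line). The 5 lysyl oxidases and the 4 latent TGF-beta binding protein genes all lie above the threshold, whereas 3 of the 5 EMILIN and multimerin genes lie below it.

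The labelled cell type was checked against marker lists, given as the count detected and the range of the summed RPKM over libraries. Of protein-coding genes 47.4% were detected. MSC surface markers were detected in 8 of 8 cases (505 to 529, highest Itgb1 at 329 ± 13, lowest Nt5e at 1.15 ± 0.0916). Itgb1, also listed among the integrins, held most of that sum. Fibroblast markers were detected in 7 of 8 cases (2727 to 2895, with Pi16 at 0.309 ± 0.0678). Smooth muscle markers were detected in 7 of 8 cases (3959 to 4171), with Acta2 at 2328 ± 58.7 and Tagln at 1164 ± 32.2 and Myocd, the defining transcription cofactor, at 0.271 ± 0.0854. All 6 mesothelial markers were detected (166 to 186), from Upk1b at 70.1 ± 5.23 to Krt19 at 4.08 ± 0.10. Leukocyte and macrophage markers were detected in 4 of 6 cases (13.1 to 14.0, with Ptprc at 0.136 ± 0.00706). Adipocyte markers were detected in 1 of 6 cases (1.81 to 1.95, with Adipoq and Cfd listed at 0) and endothelial markers in 1 of 6 (2.29 to 2.42, with Cldn5 listed at 0). In bulk RNA, fewer cells of a type and less RNA per cell cannot be told apart. Which cells of the culture carried the RNA of the 10 genes was not tested.

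Exons of 4 of the 10 genes overlap another gene on the opposite strand in the annotation. For Fbn1 the shared stretch is 2442 bases, with Gm9913, which had an RPKM of 1.47 ± 0.378. For Efemp2 it is 173 bases, with Mus81 at 2.94 ± 0.139, for Fbn2 129 bases, with Gm26507 at 0.00821 ± 0.0142, and for Eln 267 bases, with Gm30003, which has no value here. The labels name a library kit that does not mark strand, so reads in these stretches cannot be assigned to either partner.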

How the data were processed

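RNA was purified with the miRNeasy kit and libraries were made with the TruSeq V2 kit, per the labels' protocols. The authors deposited RPKM values, a column per library. Per the submitters' processing notes, the genome build was mm10. Not given in the sources used here are the aligner, the counter and the annotation release.

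Reads were inferred from the RPKM. The most frequent low value of RPKM multiplied by the exon length plus 1 was taken as that of 1 read. It gave totals of 28791578, 32962010 and 32001147 reads for libraries 1, 2 and 3. Which reads these totals count is not known. With GENCODE M21 exon lengths, 70.2% of 27301 genes came out whole in all libraries (tolerance 0.001). For each of the 10 genes the smallest length giving whole reads in all libraries (tolerance 1e-06) was found. The length used was its largest multiple up to 1.1 times the current exon length. This rule decided between 3 lengths for Eln and between 2 for Mfap2, whose larger one equals its exon length plus 1. For Eln, however, the counting intervals and counting error were taken at the smallest length, and larger read numbers are named where used. Its rescaled levels used the largest length unless the smallest is named. At these totals 3 reads in 1 kb, the limit that a count of 0 allows, equal an RPKM of 0.104, 0.0910 and 0.0937. Intervals are exact Poisson at 95% and cover counting error only. The inference of totals and lengths was run on simulated reads built with the exon length plus 1, and lengths were checked only up to a whole multiple. It therefore could not test whether that length holds in these data, nor the rule that picks the multiple.

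Levels were described as RPKM and as log2(RPKM + 1), on which folds of low genes are understated. Ratios used no pseudocount. The genes and all lists were chosen with earlier results of these data known, and no test of a list was made. In each related list the 3 highest genes, the lowest and those listed at 0 were to be named, and in marker lists the 2 highest and the lowest. The text gives a selection, with Mmp2, Mmp9, Mmp12, Ctsk and Ctss added after their values were seen. Likeness between genes over 3 libraries of a single group was not computed. Alternatives were thresholds, pseudocounts, scalings, gene lengths and leaving out each library. Python 3.11.15, pandas 2.3.3, numpy 2.4.6, scipy 1.17.1 and matplotlib 3.10.9 were used.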

Additional observations from a re-analysis of the deposited data

How the results depend on the processing

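No paired analysis was possible because there is a single group and no sample to pair across groups, while ratios between genes were taken within each library. The count of detected genes was 6 at an RPKM threshold of 5. Without each library in turn it stayed at 10, but detection asks for all libraries kept, so leaving one out could not lower it. For the same reason the 39 related genes detected could only rise without each library, and they stayed at 39. At a threshold of 5 they were 28 of 54, beside 27.1% of protein-coding genes. On the TPM scale they were 31 of 54, beside 35.4% of protein-coding genes. The median level of the 10 genes on the log2 scale was 4.69 with a pseudocount of 0.1, 3.33 after rescaling to TPM, 7.04 after rescaling to protein-coding genes, and 4.71 to 4.76 without each library. It lay 3.89 above the median of protein-coding genes, or 2.34 above that of such genes when those below a mean RPKM of 0.1 were dropped. The median CV was 11.9% on the TPM scale, where 1 gene, Gm23935, with annotated exons of 57 bases, held 80.6%, 86.1% and 85.3% of the sum in libraries 1, 2 and 3.

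Log2 ratios kept their sign throughout. With a pseudocount of 1 they were 5.17 for Fbn1 to Eln, 6.26 for Fbn1 to Fbn2, 2.84 for Mfap5 to Mfap2 and 6.30 for Lox to Eln, and Fbn1 to Fbn2 was 6.85 with 0.1. With the longest annotated transcript as the length they were 4.46 for Fbn1 to Eln, 7.03 for Fbn1 to Fbn2, 3.58 for Mfap5 to Mfap2 and 2.33 for Fbn1 to both MAGP genes. With the longest protein-coding transcript, an alternative added after seeing the data, the last 2 were 4.30 and 1.65, the others were 4.46 and 7.03 again, and Fbn1 to Eln was 6.04 on the smallest length of Eln. These lengths set the moves by construction. Without each library the ranges were 5.37 to 5.51 for Fbn1 to Eln, 6.92 to 6.96 for Fbn1 to Fbn2, 3.20 to 3.28 for Mfap5 to Mfap2, 1.48 to 1.52 for Efemp2 to Fbln5, 2.77 to 2.87 for Fbn1 to both MAGP genes and 6.50 to 6.64 for Lox to Eln. With the longest protein-coding transcript for Eln alone, also added later, Lox to Eln was 5.57 on the largest and 7.16 on the smallest length of Eln. The length of Lox was not varied.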
